A study of Homo sapiens with 9 samples.

Results

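Antisense genes are transcribed from the strand opposite another gene, and those described here are the expressed ones of HaCaT cells, an immortalised human keratinocyte line. They were chosen by the type antisense in the deposited count table and by a mean of at least 1 CPM (a gene's counts over the library total, times 1e6) over all 9 libraries, with 1 gene left out by name. This gave 423 of 5644 antisense genes, among 58676 genes in all. The mean level that chose them used the same counts as the comparisons, so the level itself is a description only. Just inside the limit were PDCD4-AS1 (1.01 CPM), TMEM9B-AS1 (1.01 CPM) and C9orf139 (1.01 CPM), and just outside were MYLK-AS1 (0.996 CPM), RP11-70L8.4 (0.996 CPM) and RP13-39P12.3 (0.995 CPM). All 423 passed the count filter of the test. A protein-coding gene on the other strand overlapped 356 of them, here called the partner. There were 407 partners and 419 pairs, and 54 antisense genes had more than 1 partner. The other 67 had none.

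Natural antisense transcripts are mostly long noncoding RNAs. Some act on the gene opposite, as KCNQ1OT1 does in silencing its imprinted domain, some share a promoter region with it and are read away from it, and some carry small nucleolar RNAs in their introns. In most pairs no function is known.

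RNA sequencing was done after 14 h with 1% DMSO, the vehicle control, with 250 nM CDDO-Me, or with 10 µM PRL-295, with 3 libraries in each group. CDDO-Me is the triterpenoid also called bardoxolone methyl, an electrophile known to activate NRF2, a transcription factor that drives antioxidant genes. For PRL-295 only the code name is used. The labels name DMSO for the control group only, and do not state that replicates were grown as separate cultures, so p-values measure the spread between these samples, which may be technical. HaCaT is a single line, shared by all 3 groups. In such bulk libraries, fewer cells of a kind and less RNA per cell cannot be told apart.

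Libraries held 23383800 to 32942156 counted reads, at which 3 counts equal 0.0911 to 0.128 CPM. All 12 keratinocyte markers averaged at least 1 CPM. Their summed level was 18590 to 20140 CPM in DMSO, 25040 to 28474 in CDDO-Me and 16352 to 17570 in PRL-295, without overlap of the groups. The defining markers PTPRC, CD3E, PECAM1, KDR, DCN, LUM, COL3A1 and TYR of immune, endothelial, fibroblast and pigment cells averaged under 0.1 CPM, while 1 of 6 fibroblast and 2 of 5 melanocyte markers averaged at least 1 CPM. The summed levels over 3 whole marker lists were 6.94 to 13.1 CPM for fibroblasts, 3.91 to 7.94 CPM for melanocytes and 0.125 to 2.35 CPM for 5 endothelial genes. The library CDDO-Me 1 stood apart. In it 70 of the 423 antisense genes had no counted read, against at most 2 in any other library, and 685 antisense genes had at least 1 count, against 1300 to 2332 elsewhere. Its median absolute deviation from each antisense gene's median log2 CPM over the 9 libraries was 0.619, against 0.172 to 0.344 in the other 8. Counts of calls, and the named genes whose call differs, are therefore also given without this library. The libraries also differed in how counts followed GC content. The correlation of a library's deviation with GC across tested genes was 0.304 to 0.353 in the DMSO libraries, -0.623 to 0.00977 in the CDDO-Me libraries and -0.442 to 0.301 in the PRL-295 libraries.

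**Figure D1:**
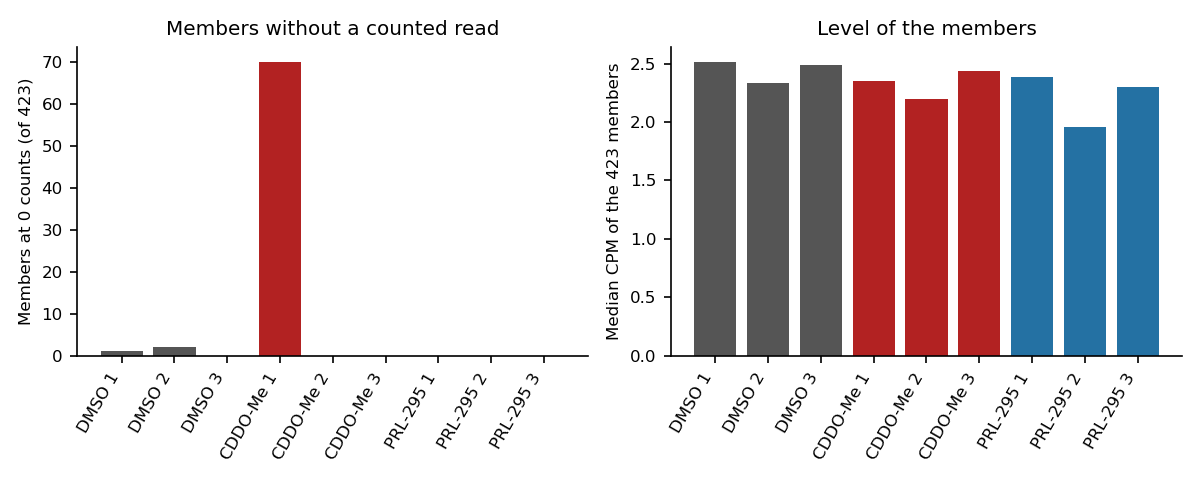
The left bars give, for each of the 9 libraries, how many of the 423 antisense genes had 0 counts, and the right bars give the median CPM of the 423 genes. CDDO-Me 1 has 70 genes at 0 while its median, 2.35 CPM, lies among those of the other libraries (1.96 to 2.52 CPM).

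Sequences are shown for 2 chosen pairs whose promoters lie next to each other, and no search for all such pairs was made. Shown as well are those of 2 named genes, a partner and an antisense gene, whose promoters held the letters of an antioxidant response element. They come from the RefSeq promoter table (GRCh38.p14), 300 bases from 250 before to 50 after each start, 5′ to 3′ on the gene's own strand. That table held 147 promoters of 122 antisense genes and 514 promoters of 306 partners. The antisense gene RP11-465N4.4, named ELF3-AS1 in GENCODE release 29, and ELF3 face away from each other there, with starts 234 bases apart, at 202010353 and 202010587 of chromosome 1, and windows that share 267 bases on opposite strands. The count table starts ELF3 further upstream, 2408 bases into the antisense gene. Capitals mark TATAAA or its reverse complement TTTATA, searched on both strands and present in 11.5% of all 35116 promoters.
ELF3 (chr1:202010337-202010636, plus strand): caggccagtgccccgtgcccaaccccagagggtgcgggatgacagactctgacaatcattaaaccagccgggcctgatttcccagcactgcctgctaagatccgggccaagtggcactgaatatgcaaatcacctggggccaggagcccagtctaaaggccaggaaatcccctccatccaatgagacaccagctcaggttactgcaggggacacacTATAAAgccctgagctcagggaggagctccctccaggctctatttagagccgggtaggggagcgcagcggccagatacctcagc
ELF3-AS1 (chr1:202010304-202010603, minus strand): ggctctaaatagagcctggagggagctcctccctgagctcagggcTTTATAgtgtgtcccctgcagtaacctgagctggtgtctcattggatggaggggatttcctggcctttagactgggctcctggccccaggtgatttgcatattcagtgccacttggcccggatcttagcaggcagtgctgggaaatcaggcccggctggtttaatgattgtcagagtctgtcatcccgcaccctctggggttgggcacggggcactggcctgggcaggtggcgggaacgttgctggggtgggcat

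FAM201A and its partner ANKRD18A are likewise divergent, with RefSeq starts 492 bases apart on chromosome 9, while in the count table their 5′ ends overlap by 187 bases. Capitals mark the 9 bases that the windows share.
FAM201A (chr9:38620838-38621137, plus strand): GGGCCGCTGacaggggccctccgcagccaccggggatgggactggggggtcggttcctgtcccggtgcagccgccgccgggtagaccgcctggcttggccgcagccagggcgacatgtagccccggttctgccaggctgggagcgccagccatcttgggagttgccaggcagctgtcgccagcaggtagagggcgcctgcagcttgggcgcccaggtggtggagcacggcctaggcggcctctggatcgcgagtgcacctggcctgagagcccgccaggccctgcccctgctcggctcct
ANKRD18A (chr9:38620547-38620846, minus strand): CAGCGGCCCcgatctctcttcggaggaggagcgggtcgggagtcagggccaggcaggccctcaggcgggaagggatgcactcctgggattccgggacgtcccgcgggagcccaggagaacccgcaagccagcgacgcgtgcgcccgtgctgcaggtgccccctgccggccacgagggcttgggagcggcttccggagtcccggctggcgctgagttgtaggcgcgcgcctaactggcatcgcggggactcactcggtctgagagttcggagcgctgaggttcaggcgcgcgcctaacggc

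The core of the antioxidant response element, TGACNNNGC, was searched on both strands. It was present in 25 of 147 promoters of antisense genes (17.0%), in 65 of 514 promoters of partners (12.6%) and in 13.3% of all promoters. It was looked up only for the called antisense genes, the pairs with a called ratio and the up to 8 pairs per comparison with the largest partner changes, and was found in EPHX1 (1 of 3 promoters), UNC5B-AS1, GSN (1 of 6), TPT1-AS1 and TPT1. Of the called antisense genes only FAM201A had a RefSeq promoter, without a match, so the others could not be searched. The partners MSC, KRT7, LIF, UNC5B, HEBP1 and SOX7, among others, had no RefSeq promoter either. A match is only a match of letters. Capitals mark it in the 2 shown.
EPHX1 (chr1:225825104-225825403, plus strand): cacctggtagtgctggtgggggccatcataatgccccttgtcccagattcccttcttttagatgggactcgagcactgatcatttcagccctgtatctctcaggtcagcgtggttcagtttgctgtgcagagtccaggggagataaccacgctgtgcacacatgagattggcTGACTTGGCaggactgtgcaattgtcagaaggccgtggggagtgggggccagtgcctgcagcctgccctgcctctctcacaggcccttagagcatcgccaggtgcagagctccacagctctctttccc
UNC5B-AS1 (chr10:71218179-71218478, minus strand): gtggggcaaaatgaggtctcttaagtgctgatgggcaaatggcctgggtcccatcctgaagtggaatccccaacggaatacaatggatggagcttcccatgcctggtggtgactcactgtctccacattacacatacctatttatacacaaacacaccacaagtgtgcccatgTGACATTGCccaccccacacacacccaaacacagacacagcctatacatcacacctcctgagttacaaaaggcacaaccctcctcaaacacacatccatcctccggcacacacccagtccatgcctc

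The antisense genes were low in abundance. Their median was 2.25 CPM, 323 of the 423 lay under 5 CPM and 31 reached 10 CPM. They held 79.0% to 84.1% of the reads counted to the antisense type in each library, and the 10 highest held 28.5% to 33.5% of the reads of the 423. Their median exonic length was 2096 bases, against 4861 bases for partners, and they lay on 23 chromosomes. GENCODE release 29 still types 403 of them as antisense. It types AC025335.1, UMAD1, LINC00094 and INAFM2 as protein coding, and the other 16 under 8 further types. All antisense genes together took 0.2615% ± 0.0086 of counted reads in DMSO (SD, n = 3), 0.2637% ± 0.0053 in CDDO-Me and 0.2538% ± 0.0172 in PRL-295. The shares overlapped between groups and did not differ beyond their spread (exact two-sided permutation test, p = 0.8, 0.6 and 0.4 for CDDO-Me against DMSO, PRL-295 against DMSO and PRL-295 against CDDO-Me). With 3 against 3 libraries that test cannot go below 0.1.

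Values are listed in the order of the replicate number. The highest antisense gene was INAFM2, at 131, 143 and 132 CPM in DMSO, 130.0, 100 and 93.7 in CDDO-Me and 128, 150 and 135 in PRL-295. SNHG7, a host of small nucleolar RNAs, was at 99.1, 94.8 and 153 CPM in DMSO, 68.6, 86.2 and 89.9 in CDDO-Me and 117, 166 and 110 in PRL-295. In both, all 3 CDDO-Me values were below all DMSO values, with adjusted p = 0.167 for INAFM2 and 0.163 for SNHG7 over all 9 libraries (edgeR's quasi-likelihood test, Benjamini-Hochberg adjustment over 16239 genes, used throughout with a threshold of 0.05). TUG1, a long noncoding RNA without an overlapping partner, was at 84.0, 86.9 and 75.8 CPM in DMSO, 102, 140 and 129 in CDDO-Me and 114, 59.4 and 107 in PRL-295, and CDDO-Me against DMSO gave adjusted p = 0.105. The other 7 of the 10 highest were RP11-284F21.10, GABPB1-AS1, FGD5-AS1, LINC00094, GATA2-AS1, ARRDC1-AS1 and PPP1R26-AS1, at mean levels of 84.4 down to 30.6 CPM. With all 9 libraries none of the 10 passed the test in any comparison, and the smallest adjusted p among the 7 was 0.0616, for PPP1R26-AS1 in CDDO-Me against DMSO (log2 fold change 0.63 ± 0.19, SE). Without CDDO-Me 1, INAFM2 fell by 0.49 in CDDO-Me on the log2 scale (SE 0.12, adjusted p = 0.0199) and was higher in PRL-295 than in CDDO-Me by 0.55 (adjusted p = 0.0476). TUG1 then rose by 0.71 in CDDO-Me (SE 0.21, adjusted p = 0.0435).

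Where an antisense gene sits against its partner varied. In 147 pairs the 5′ ends overlapped head-to-head, in 109 the 3′ ends overlapped tail-to-tail, in 128 the antisense gene lay inside its partner and in 35 the partner lay inside it. Exons of both genes overlapped, by GENCODE release 29, in 305 pairs (72.8%), by a median of 294 bases. The share was 83.0% of head-to-head and 84.4% of tail-to-tail pairs but 54.7% of pairs with the antisense gene inside its partner. The strand setting of the counting is not given in the sources used here, so reads from overlapping exons cannot be assigned to a strand with certainty, and the 2 genes of such a pair cannot be told apart there. Per length, on the FPKM scale, the antisense gene was the lower one in most pairs: the median over the 419 pairs was 1.21 FPKM for the antisense gene and 5.61 FPKM for its partner, and the antisense gene was higher in 107. The median ratio of antisense to partner FPKM was 0.170 in head-to-head pairs, 0.202 for antisense genes inside a partner and 0.313 in tail-to-tail pairs, and 2.95 where the partner lay inside. Among the 10 highest antisense genes, the ratio was 9.41 for SNHG7 and 9.20 for RP11-284F21.10.

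In CDDO-Me against DMSO, 7 of 423 antisense genes changed (1.65%), 4 higher and 3 lower. Of all 16239 tested genes, 9.22% were called, 4.65% higher and 4.57% lower. Among the 323 antisense genes under 5 CPM, 2 were called (0.619%), against 2.97% of 1850 protein-coding genes of 1 to 5 CPM. The median log2 fold change was -0.08 over the antisense genes and 0.01 over all tested genes. With each library corrected for its GC trend, these medians were -0.0044 and -0.0056. The median SD of log2 CPM between libraries of a group was higher for the antisense genes than for all tested genes, at 0.348 against 0.211 in DMSO, 0.463 against 0.342 in CDDO-Me and 0.273 against 0.195 in PRL-295. Leaving out single libraries moved the count of called antisense genes to 2 for DMSO 1, for DMSO 2, for CDDO-Me 2 and for PRL-295 3, to 4 for DMSO 3 and to 19 for CDDO-Me 1. The share of all tested genes called was then 2.82%, 2.37%, 3.71%, 4.57%, 3.7% and 16.5% in that order. The plot of change by level shows the called genes among the rest.

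**Figure D2:**
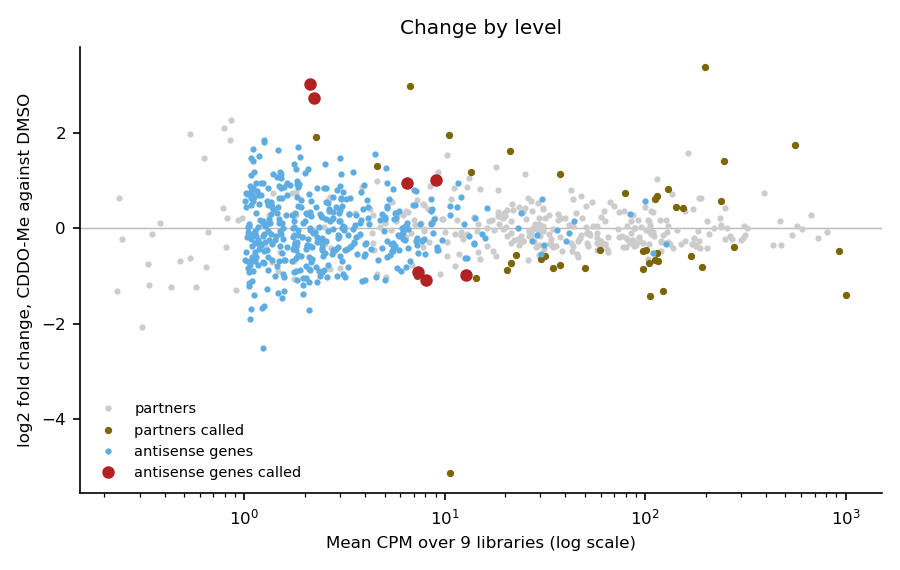
Each point is a gene, with its mean CPM over 9 libraries on a log axis and its log2 fold change for CDDO-Me against DMSO. The 423 antisense genes (blue, 7 called in red) lie mostly under 5 CPM, while their partners (grey, 43 called in brown) reach 999 CPM.

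RP11-190A12.8 (chromosome 1, 159866954 to 159867685, plus strand, named AL590560.1 in GENCODE release 29) had the largest rise of the 7. It was at 0.784, 0.546 and 0.378 CPM in DMSO, 6.33, 3.23 and 4.40 in CDDO-Me and 1.07, 1.37 and 1.10 in PRL-295. All CDDO-Me values lay above all others, and the PRL-295 values lay between. The rise in CDDO-Me was 8.16-fold (log2 fold change 3.03 ± 0.49, SE, adjusted p = 0.00477), and the call held with each of the 9 libraries left out in turn. PRL-295 against DMSO gave 1.08 ± 0.48 on the log2 scale (adjusted p = 0.369), and PRL-295 against CDDO-Me gave -1.95 ± 0.47 (adjusted p = 0.0683). The gene lies inside its partner RP11-190A12.7, which did not pass the count filter.

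RP11-66B24.4 (chromosome 15, 100892859 to 100919283, minus strand, AC015712.2 in GENCODE release 29) fell in CDDO-Me. Its values were 15.8, 16.2 and 14.8 CPM in DMSO, 8.15, 7.83 and 7.91 in CDDO-Me and 14.8, 13.1 and 15.7 in PRL-295. The CDDO-Me libraries stood alone, and DMSO and PRL-295 overlapped. The log2 fold change was -0.98 ± 0.17 (adjusted p = 0.00783, held with each library left out), and PRL-295 against DMSO gave -0.08 ± 0.17 (adjusted p = 0.921). PRL-295 was higher than CDDO-Me by 0.90 ± 0.17 (adjusted p = 0.0292), the only antisense gene called in the direct comparison, with all 3 PRL-295 values above all 3 CDDO-Me values. That direct call was lost without DMSO 1, 2 or 3 (adjusted p = 0.0597, 0.0600 and 0.0597), CDDO-Me 2 or 3 (0.0577 and 0.0996) or PRL-295 1, 2 or 3 (0.0848, 0.0628 and 0.152), and with only the 6 libraries compared (0.124). The gene overlaps 2 partners. It runs tail-to-tail into ALDH1A3, which makes retinoic acid from retinaldehyde, with 1585 bases of shared exon, and starts 68 bases from LRRK1, a leucine-rich repeat kinase. ALDH1A3 was at 145, 151 and 152 CPM in DMSO, 59.5, 59.9 and 61.1 in CDDO-Me and 148, 164 and 167 in PRL-295. As for the antisense gene, its CDDO-Me libraries were lowest and DMSO and PRL-295 overlapped. It fell by 1.32 on the log2 scale (SE 0.10, adjusted p = 4.62e-05) and was higher in PRL-295 than in CDDO-Me by 1.44 ± 0.10 (adjusted p = 8.75e-05). The ratio of RP11-66B24.4 to ALDH1A3 changed by 0.35 on the log2 scale in CDDO-Me (95% interval -0.08 to 0.78, adjusted p = 0.425, limma). LRRK1 gave -0.21 ± 0.18 (adjusted p = 0.502).

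FAM201A, whose promoter is shown above, was at 9.12, 9.71 and 9.80 CPM in DMSO, 4.58, 4.94 and 5.64 in CDDO-Me and 8.09, 7.13 and 6.87 in PRL-295. The 3 groups did not overlap, in the order DMSO, PRL-295, CDDO-Me. It fell by 0.92 on the log2 scale in CDDO-Me (SE 0.21, adjusted p = 0.0232), while PRL-295 against DMSO gave -0.35 ± 0.21 (adjusted p = 0.537). The call was lost without DMSO 1, 2 or 3 (adjusted p = 0.0722, 0.0934 and 0.0867), CDDO-Me 2 (0.0776) or PRL-295 3 (0.0586). Its divergent partner ANKRD18A was at 0 to 3.37 CPM, 0 being in CDDO-Me 1, and gave -0.17 ± 1.06 (adjusted p = 0.942). RP5-1177I5.3 (chromosome 22, no partner) was at 10.4, 12.1 and 7.78 CPM in DMSO, 3.01, 5.32 and 6.07 in CDDO-Me and 8.79, 8.60 and 10.7 in PRL-295. It fell by 1.08 on the log2 scale (SE 0.29, adjusted p = 0.0448), a call lost without DMSO 1, 2 or 3 (adjusted p = 0.127, 0.173 and 0.0648), CDDO-Me 2 or 3 (0.0864 and 0.0537) or PRL-295 1 or 3 (0.0643 and 0.0787). It was also lost with only the 6 libraries compared (0.0797) and with the GC correction (0.0757), and that of FAM201A without the count filter (0.0745).

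MSC-AS1 rose with the gene that lies inside it, MSC, which encodes the basic helix-loop-helix repressor musculin (chromosome 8). MSC-AS1 was at 0.248, 0.212 and 1.20 CPM in DMSO, 3.89, 4.60 and 2.74 in CDDO-Me and 2.63, 1.92 and 2.56 in PRL-295. All compound libraries lay above all DMSO libraries. The rise in CDDO-Me was 6.68-fold (log2 fold change 2.74 ± 0.65, adjusted p = 0.0275), and PRL-295 against DMSO gave 2.11 ± 0.64 (adjusted p = 0.191). The call was lost without DMSO 1 or 2 (adjusted p = 0.101 and 0.0974), CDDO-Me 2 (0.0890) or PRL-295 3 (0.0544), with the GC correction (0.0571) and with only the 6 libraries compared (0.0654). Without DMSO 3 the log2 fold change was 4.0 (adjusted p = 0.00687). MSC was at 6.35, 9.78 and 12.9 CPM in DMSO, 33.2, 27.4 and 29.4 in CDDO-Me and 18.9, 27.2 and 24.4 in PRL-295. It rose 3.08-fold in CDDO-Me (log2 fold change 1.62 ± 0.26, adjusted p = 0.00429), and PRL-295 against DMSO gave 1.31 ± 0.26 (adjusted p = 0.0502). A further partner, TRPA1, was at 0.687 CPM or less in all libraries.

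ST3GAL4-AS1, named GSEC in GENCODE release 29 (chromosome 11), was at 5.16, 5.04 and 6.87 CPM in DMSO, 10.7, 12.5 and 11.5 in CDDO-Me and 8.96, 10.7 and 10.1 in PRL-295, so that no DMSO library reached a compound library. It rose 2.02-fold in CDDO-Me (log2 fold change 1.02 ± 0.22, adjusted p = 0.0160), and PRL-295 against DMSO gave 0.83 ± 0.22 (adjusted p = 0.124). Its tail-to-tail partner DCPS, the scavenger decapping enzyme, was at 24.5, 18.6 and 21.5 CPM in DMSO, 18.4, 21.1 and 21.4 in CDDO-Me and 21.9, 26.1 and 19.7 in PRL-295, with all groups overlapping. The ratio of antisense gene to partner rose by 1.10 in CDDO-Me (95% interval 0.57 to 1.63, adjusted p = 0.0352, limma). Their exons do not overlap in GENCODE release 29. The rise of ST3GAL4-AS1 was lost without DMSO 1 or 2 (adjusted p = 0.0805 and 0.0820), CDDO-Me 2 (0.0727) or PRL-295 3 (0.0507). The ratio call was lost without DMSO 1, 2 or 3 (adjusted p = 0.140, 0.109 and 0.0637), CDDO-Me 2 or 3 (0.0937 and 0.0711) or PRL-295 1 or 3 (0.0623 and 0.0662). CTD-2510F5.4, which lies inside PRR11 on chromosome 17, was at 4.41, 4.74 and 4.06 CPM in DMSO, 9.03, 9.82 and 6.84 in CDDO-Me and 8.01, 5.83 and 5.63 in PRL-295. It rose by 0.95 ± 0.25 in CDDO-Me (adjusted p = 0.0408), a call lost without DMSO 1, 2 or 3 (adjusted p = 0.127, 0.107 and 0.133), CDDO-Me 2 (0.146) or PRL-295 1 or 3 (0.0543 and 0.0805). It was also lost with only the 6 libraries compared (adjusted p = 0.0654), with the GC correction (0.0719), without the count filter (0.0757) and with limma quality weights (0.0564). PRR11 gave 0.36 ± 0.15 (adjusted p = 0.160).

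**Figure D3:**
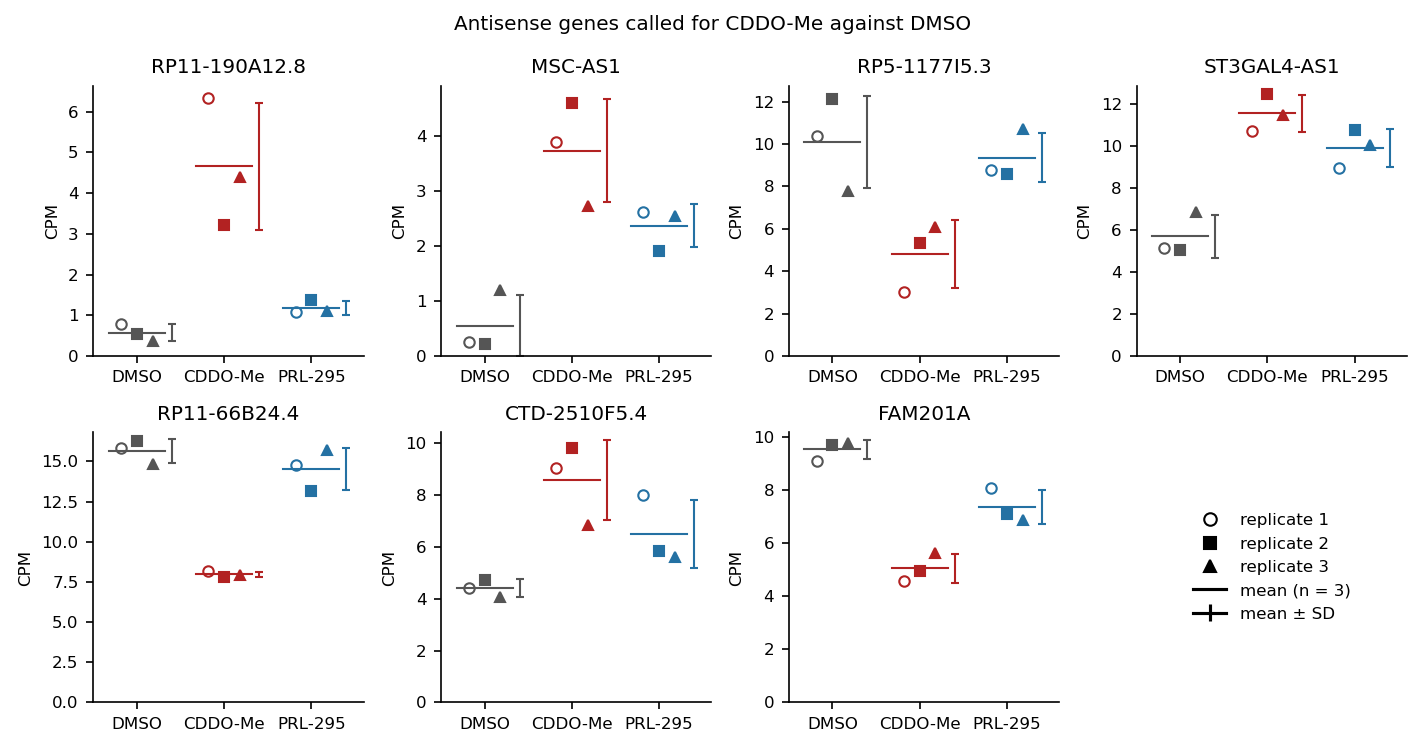
CPM in each library for the 7 antisense genes called in CDDO-Me against DMSO, with the mean (line) and SD (bar, n = 3) of each group and a symbol for each replicate. RP11-66B24.4 falls from 14.8 to 16.2 CPM in DMSO to 7.83 to 8.15 CPM in CDDO-Me. The 7 were chosen by a test on these same values, so the gap between CDDO-Me and DMSO libraries adds no support.

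In PRL-295 against DMSO no antisense gene passed the edgeR test, and 14 had an unadjusted p under 0.05. DESeq2 called 4 (0.946% of all 423, whether or not given an adjusted p). Of all genes given an adjusted p it called 4.31%, so the 2 shares have unlike bases. By edgeR, 0.684% of all tested genes were called, 0.462% higher and 0.222% lower. The median log2 fold change was -0.06 over the antisense genes and -0.01 over all tested genes, and -0.0053 and -0.0048 with the GC correction. In the direct comparison of PRL-295 with CDDO-Me, 1 antisense gene was called, RP11-66B24.4, against 1.59% of all genes, 0.905% higher and 0.684% lower in PRL-295. Both comparisons with DMSO share the 3 control libraries, so their values are given side by side only.

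Without CDDO-Me 1, 19 antisense genes were called in CDDO-Me against DMSO (4.49%, 9 higher and 10 lower), among them all 7 above, while 16.5% of all genes were. In PRL-295 against DMSO, 5 were then called (1.18%, against 3.47% of all genes), although that library is in neither group, and in the direct comparison 3 were called (0.709%, against 1.68%). The genes named from this fit were chosen after their values were seen. ZFAS1, which hosts small nucleolar RNAs and starts head-to-head with ZNFX1, a helicase of antiviral defence, was at 4.41, 4.92 and 6.90 CPM in DMSO, 2.54, 10.7 and 11.9 in CDDO-Me and 12.3, 12.9 and 10.3 in PRL-295. CDDO-Me 1 was below every other library and all other compound libraries were above DMSO. With all libraries the log2 fold change was 0.62 ± 0.45 in CDDO-Me (adjusted p = 0.423) and 1.16 ± 0.45 in PRL-295 (adjusted p = 0.311), and without CDDO-Me 1 it was 1.05 (adjusted p = 0.0151) and 1.16 (adjusted p = 0.0174). OTUD6B-AS1 was at 1.82, 0.971 and 2.58 CPM in DMSO, 0, 9.92 and 5.99 in CDDO-Me and 7.27, 4.32 and 7.63 in PRL-295, with log2 fold changes without CDDO-Me 1 of 2.15 (adjusted p = 0.00624) and 1.87 (adjusted p = 0.0221). CTB-131K11.1 was at 6.23, 6.07 and 8.32 CPM in DMSO, 7.84, 19.2 and 13.0 in CDDO-Me and 19.5, 13.5 and 11.6 in PRL-295, with 1.22 (adjusted p = 0.0129) and 1.14 (adjusted p = 0.0298). In OTUD6B-AS1 and CTB-131K11.1 CDDO-Me 1 was the lowest compound library. ST3GAL4-AS1 also passed in PRL-295 against DMSO without it (0.83, adjusted p = 0.0476), as did RP1-253P7.4, which was lower (-0.99, adjusted p = 0.0492). HOXA-AS2, transcribed from the HOXA cluster, was at 2.85, 4.80 and 2.84 CPM in DMSO, 2.73, 1.06 and 1.41 in CDDO-Me and 4.03, 5.06 and 3.95 in PRL-295. Without CDDO-Me 1 it fell by 1.51 in CDDO-Me on the log2 scale (adjusted p = 0.0196) and was higher in PRL-295 than in CDDO-Me by 1.85 (adjusted p = 0.0324).

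Of a list of 40 well-known antisense and related long noncoding genes, 15 were among the 423, and none of the 15 was called in any comparison with all 9 libraries. In CDDO-Me against DMSO their median log2 fold change was 0.34, from -1.01 for HOXA-AS2 to 0.89 for LOXL1-AS1. In PRL-295 against DMSO it was 0.20, from -1.10 for KCNQ1OT1 to 1.16 for ZFAS1. KCNQ1OT1, the imprinted transcript antisense to the potassium channel gene KCNQ1, was at 12.6, 10.3 and 7.34 CPM in DMSO, 10.1, 8.69 and 14.1 in CDDO-Me and 6.16, 1.66 and 6.03 in PRL-295. All PRL-295 values were below all others, with adjusted p = 0.302 against DMSO and 0.173 against CDDO-Me. HOTAIRM1, at the other end of the HOXA cluster, was at 1.63 to 3.88 CPM in all 9 libraries, with its groups overlapping.

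Among partners, 43 of 378 tested changed in CDDO-Me against DMSO (11.4%, against 9.22% of all tested genes), with 17 higher and 26 lower. In PRL-295 against DMSO 4 changed (1.06%, against 0.684%), 3 higher and 1 lower, and in PRL-295 against CDDO-Me 10 changed (2.65%, against 1.59%), 8 higher and 2 lower. These differences from all genes were not tested. The balance of directions in CDDO-Me against DMSO became 43 higher and 29 lower without the count filter, and 16 higher and 15 lower with the GC correction. Leaving out DMSO 1, 2 or 3 gave 17, 15 and 21 called partners in CDDO-Me against DMSO, with 2.82%, 2.37% and 3.7% of all genes called. Leaving out CDDO-Me 1, 2 or 3 gave 92, 19 and 26 (16.5%, 3.71% and 5.58% of all genes), and leaving out PRL-295 3 gave 24 (4.57%). In PRL-295 against DMSO, leaving out DMSO 1, 2 or 3 gave 1, 0 and 0 (0.212%, 0.237% and 0.295% of all genes) and leaving out CDDO-Me 1 or 2 gave 19 and 14 (3.47% and 1.61%). Leaving out PRL-295 1, 2 or 3 gave 2, 2 and 0 there (0.247%, 0.344% and 0.193%). In the direct comparison, leaving out CDDO-Me 3 gave 6 (0.625% of all genes) and leaving out PRL-295 1 or 3 gave 6 and 4 (0.735% and 0.352%).

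ELF3, an epithelial transcription factor of the ETS family, showed the largest change of any partner and the largest change in the ratio of antisense gene to partner. It was at 25.4, 16.1 and 20.4 CPM in DMSO, 0.721, 0.687 and 0.299 in CDDO-Me and 10.1, 11.9 and 10.0 in PRL-295. The groups did not overlap. The fall in CDDO-Me was 35.4-fold (log2 fold change -5.14 ± 0.34, adjusted p = 1.49e-05), PRL-295 against DMSO gave -0.92 ± 0.27 (adjusted p = 0.179), and PRL-295 was 18.7-fold above CDDO-Me (4.23 ± 0.33, adjusted p = 0.000146). RP11-465N4.4 (ELF3-AS1), which shares the promoter stretch shown above and 664 bases of exon with ELF3, was at 6.02, 4.95 and 4.47 CPM in DMSO, 3.35, 1.82 and 2.01 in CDDO-Me and 4.19, 4.17 and 3.91 in PRL-295. Its CDDO-Me values were also the lowest, by a smaller factor: -1.10 ± 0.33 in CDDO-Me against DMSO, with adjusted p = 0.0596, and -1.43 with adjusted p = 0.00726 without CDDO-Me 1. The ratio of RP11-465N4.4 to ELF3 rose by 3.95 on the log2 scale in CDDO-Me (95% interval 3.13 to 4.76, adjusted p = 0.000263, limma) and was lower in PRL-295 than in CDDO-Me by 3.34 (adjusted p = 0.00166). Both held with each library left out. RNPEP, an aminopeptidase gene that the antisense gene meets tail-to-tail, fell by 0.66 in CDDO-Me (SE 0.12, adjusted p = 0.00690), and the ratio to it changed by -0.46 (95% interval -1.22 to 0.30).

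Across all 3320 opposite-strand overlapping pairs of tested genes, the ratio of the 2 genes was called in 2.14% for CDDO-Me against DMSO, 0% for PRL-295 against DMSO and 0.331% for PRL-295 against CDDO-Me (limma on the within-library difference of log2 CPM). Of the 388 antisense-partner pairs with both genes tested, 3, 0 and 1 were called. In PRL-295 against DMSO, 19 of these pairs and 289 of all pairs had an unadjusted p under 0.05. The 3 called in CDDO-Me were RP11-465N4.4 to ELF3, ST3GAL4-AS1 to DCPS and RP11-392P7.6 to HEBP1. RP11-392P7.6 (GPRC5D-AS1 in GENCODE release 29) was at 2.60, 2.79 and 3.78 CPM in DMSO, 8.81, 6.15 and 7.10 in CDDO-Me and 3.58, 3.32 and 7.42 in PRL-295, and HEBP1, a haem-binding protein gene, was at 64.5, 70.2 and 76.2 CPM in DMSO, 49.5, 59.2 and 48.8 in CDDO-Me and 61.8, 81.3 and 71.3 in PRL-295. The 2 moved apart in CDDO-Me, and their ratio rose by 1.67 (SE 0.38, adjusted p = 0.0413). That call was lost without DMSO 1, 2 or 3 (adjusted p = 0.140, 0.156 and 0.106), CDDO-Me 2 or 3 (0.0663 and 0.0988) or PRL-295 1 (0.0644). The count for CDDO-Me against DMSO became 1 on leaving out any DMSO library, CDDO-Me 2 or PRL-295 1, and the direct count became 2 on leaving out CDDO-Me 2.

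Without CDDO-Me 1, the ratio was called in 11 of the 388 antisense-partner pairs for CDDO-Me against DMSO, against 162 of all 3320 pairs (4.88%). For PRL-295 against DMSO the ratio was called in 5 of the 388, against 46 of the 3320 (1.39%). For ZFAS1 to ZNFX1 it then rose by 1.52 in CDDO-Me (adjusted p = 0.00639) and by 1.51 in PRL-295 (adjusted p = 0.00979). ZNFX1 was at 215, 228 and 190 CPM in DMSO, 179, 142 and 169 in CDDO-Me and 159, 156 and 174 in PRL-295, below DMSO in all 6 compound libraries. For SVIL-AS1 to SVIL, the gene of the actin-binding protein supervillin, it rose by 0.91 in CDDO-Me (adjusted p = 0.0485). For GABPB1-AS1 to GABPB1, a subunit of the GA-binding protein, it fell by 1.40 in PRL-295 (adjusted p = 0.0286). For TPT1-AS1 to TPT1 it fell by 3.36 in CDDO-Me and 3.08 in PRL-295 (adjusted p = 0.00655 and 0.0111). TPT1 has near-identical processed copies in the genome, so its counts are uncertain, and its values spread from 12.5 to 631 CPM over the 9 libraries.

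**Figure D4:**
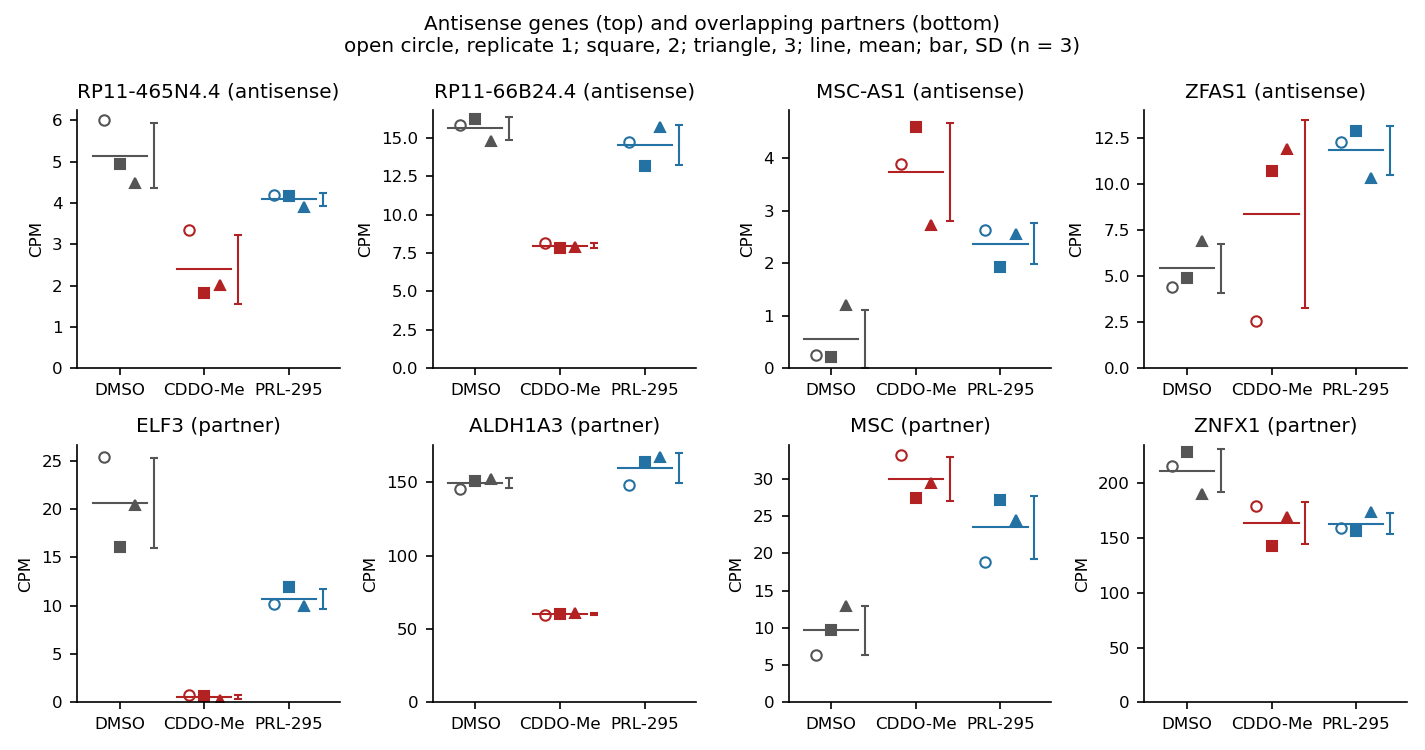
CPM in each library for 4 antisense genes (top) and an overlapping partner of each (bottom), with mean (line) and SD (bar, n = 3) per group. ELF3 is at 0.299 to 0.721 CPM in CDDO-Me while RP11-465N4.4 is at 1.82 to 3.35 CPM, RP11-66B24.4 and ALDH1A3 are both lowest in CDDO-Me, MSC-AS1 and MSC are both lowest in DMSO, and ZFAS1 in CDDO-Me 1 lies apart from the other compound libraries.

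ITGA6, the integrin chain that anchors keratinocytes to the basement membrane, was at 301, 306 and 289 CPM in DMSO, 943, 1214 and 882 in CDDO-Me and 410.3, 302 and 359 in PRL-295. It rose 3.38-fold in CDDO-Me (adjusted p = 5.61e-05) and was lower in PRL-295 than in CDDO-Me by 1.47 on the log2 scale (adjusted p = 0.000527). Its antisense gene AC093818.1 was at 0, 1.37 and 0.662 CPM in DMSO, 3.76, 1.85 and 1.88 in CDDO-Me and 0.575, 0.295 and 0.913 in PRL-295, also highest in all 3 CDDO-Me libraries, with adjusted p = 0.290. KRT7, a keratin of simple epithelia, was at 1439, 1488 and 1272 CPM in DMSO, 633, 432 and 540 in CDDO-Me and 1006, 1125 and 1057 in PRL-295. It fell by 1.39 in CDDO-Me on the log2 scale (SE 0.14, adjusted p = 0.000283) and was 2.03-fold higher in PRL-295 than in CDDO-Me (adjusted p = 0.00589). RP3-416H24.1, which lies inside KRT7, was at 7.34, 6.62 and 6.99 CPM in DMSO, 1.88, 3.98 and 5.56 in CDDO-Me and 8.01, 7.86 and 6.36 in PRL-295. Its CDDO-Me values were below all others (-0.89 ± 0.35, adjusted p = 0.135). UNC5B, a netrin receptor gene, was at 191, 169 and 136 CPM in DMSO, 77.5, 50.3 and 58.5 in CDDO-Me and 88.9, 90.4 and 93.5 in PRL-295. It fell by 1.41 in CDDO-Me (SE 0.17, adjusted p = 0.000918), and UNC5B-AS1 was at 3.09, 0.516 and 2.33 CPM in DMSO, 0, 0.721 and 1.16 in CDDO-Me and 0.904, 1.37 and 0.950 in PRL-295, with overlap and adjusted p = 0.374.

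Rises were also called for TATDN1, a nuclease-family gene (log2 fold change 3.00), CCDC91, a coiled-coil protein gene (1.97), and ENTPD1, which encodes the ectonucleotidase CD39 (1.93), with adjusted p = 0.0134, 0.0269 and 0.0299. Their antisense genes RP11-158K1.3, RP11-967K21.1 and ENTPD1-AS1 had log2 fold changes of 0.58, 1.47 and 0.37, none called. The call of TATDN1 was lost without DMSO 1, 2 or 3 (adjusted p = 0.0585, 0.0727 and 0.0595), and its log2 fold change was 1.98 without CDDO-Me 2. The call of CCDC91 was lost without DMSO 1, 2 or 3 (adjusted p = 0.10, 0.0982 and 0.0936) or CDDO-Me 2 (0.0869). That of ENTPD1 was lost without DMSO 1, 2 or 3 (adjusted p = 0.110, 0.0820 and 0.0925), CDDO-Me 3 (0.0849) or PRL-295 3 (0.0562), with only the 6 libraries compared (0.0617) and with the GC correction (0.0622). TPT1 rose by 3.39 (adjusted p = 0.0246), with TPT1-AS1 at 0.66 (adjusted p = 0.117), and lost its call without DMSO 2 or 3 (adjusted p = 0.112 and 0.0862) or CDDO-Me 2 (0.0687). Its log2 fold change was 4.10 without DMSO 1 and 2.34 without CDDO-Me 2.

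Of 42 genes of the NRF2 pathway, all tested, 28 rose in CDDO-Me and 24 in PRL-295 against DMSO, none fell, and 2 were lower in PRL-295 than in CDDO-Me. Their median log2 fold changes were 0.96 in each comparison with DMSO. Of all tested genes, 4.65% and 0.462% were called higher against DMSO, and 0.684% lower in PRL-295 than in CDDO-Me. The list was chosen with earlier results of these data known, and its counts were made with all 9 libraries only. EPHX1 and MAFG were the genes of this list that were partners. EPHX1, the microsomal epoxide hydrolase, was at 22.1, 21.3 and 23.1 CPM in DMSO, 44.2, 51.4 and 51.2 in CDDO-Me and 39.8, 43.6 and 39.4 in PRL-295, each compound library above all DMSO libraries. It rose 2.21-fold in CDDO-Me (adjusted p = 0.000784) and 1.89-fold in PRL-295 (adjusted p = 0.0129). Its tail-to-tail antisense gene RP11-285F7.2 was at 1.20, 0.577 and 1.48 CPM in DMSO, 3.07, 1.89 and 1.88 in CDDO-Me and 0.945, 1.44 and 0.584 in PRL-295, with 1.07 ± 0.59 in CDDO-Me (adjusted p = 0.279) and -0.09 ± 0.59 in PRL-295 (adjusted p = 0.976). MAFG, a small MAF protein that pairs with NRF2 on DNA, was at 96.4, 79.3 and 85.2 CPM in DMSO, 168, 145 and 151 in CDDO-Me and 133, 158 and 153 in PRL-295. It rose 1.78-fold (adjusted p = 0.00254) and 1.74-fold (adjusted p = 0.0159), while RP11-498C9.12 inside it was at 1.57, 1.37 and 0.882 CPM in DMSO, 0, 1.58 and 3.12 in CDDO-Me and 2.18, 1.88 and 2.01 in PRL-295, with adjusted p = 0.900 and 0.868. The PRL-295 rise of EPHX1 was lost without DMSO 1, 2 or 3 (adjusted p = 0.0901, 0.0911 and 0.0558) or PRL-295 3 (0.0796), and that of MAFG without DMSO 2 or 3 (adjusted p = 0.119 and 0.0706) or PRL-295 2 or 3 (0.0508 and 0.0985).

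PTHLH, the parathyroid hormone-like hormone, and GSN, which encodes the actin-severing protein gelsolin, were the other partners called in PRL-295 against DMSO. PTHLH was at 137, 137 and 148 CPM in DMSO, 376, 413 and 333 in CDDO-Me and 223, 210.3 and 234 in PRL-295, with no overlap of groups. It rose 2.65-fold in CDDO-Me (adjusted p = 4.37e-05) and 1.61-fold in PRL-295 (adjusted p = 0.0168), and was lower in PRL-295 than in CDDO-Me by 0.72 (adjusted p = 0.00777). RP11-993B23.3, inside PTHLH, was at 2.15, 1.00 and 1.10 CPM in DMSO, 4.42, 1.65 and 1.84 in CDDO-Me and 1.60, 0.738 and 0.731 in PRL-295, with adjusted p of 0.374, 0.851 and 0.289 in the same order. GSN was at 372, 272 and 306 CPM in DMSO, 313, 264 and 277 in CDDO-Me and 197, 175 and 203 in PRL-295. It fell by 0.70 in PRL-295 (SE 0.12, adjusted p = 0.0352) and gave -0.16 ± 0.12 in CDDO-Me, and GSN-AS1 gave -0.63 ± 0.64 in PRL-295 (adjusted p = 0.776). The PRL-295 call of PTHLH was lost without DMSO 1, 2 or 3 (adjusted p = 0.117, 0.119 and 0.0536) or PRL-295 1 or 3 (0.0750 and 0.109), and its direct call without PRL-295 3 (0.0717). That of GSN was lost without DMSO 1, 2 or 3 (adjusted p = 0.196, 0.0651 and 0.0920), CDDO-Me 3 (0.0744) or PRL-295 1, 2 or 3 (0.148, 0.119 and 0.148).

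LIF, a cytokine of the interleukin 6 family, FUT8, the core fucosyltransferase, and SOX7, a transcription factor, were higher in PRL-295 than in CDDO-Me by 1.10, 0.89 and 0.87 on the log2 scale (adjusted p = 0.0115, 0.0322 and 0.0112). Their antisense genes RP1-102K2.8, FUT8-AS1 and CTD-2135J3.3 gave 1.13, 0.90 and -0.06, with adjusted p of 0.568, 0.430 and 0.967. LIF lost its call without PRL-295 3 (0.0709), and SOX7 without CDDO-Me 3 (adjusted p = 0.0602) or PRL-295 1 or 3 (0.0532 and 0.0717). FUT8 lost it without DMSO 1, 2 or 3 (adjusted p = 0.0613, 0.0707 and 0.0591), CDDO-Me 3 (0.0907) or PRL-295 1, 2 or 3 (0.0771, 0.113 and 0.118). With only the 6 libraries compared, the direct calls of LIF (adjusted p = 0.0688), SOX7 (0.0740), FUT8 (0.144), KRT7 (0.0597) and PTHLH (0.0679) were lost.

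Over the 388 pairs with both genes tested, antisense gene and partner changed with the same sign in 251 pairs (64.7%) for CDDO-Me against DMSO, 222 (57.2%) for PRL-295 against DMSO and 218 (56.2%) for PRL-295 against CDDO-Me. Across pairs, Pearson's r of the 2 log2 fold changes was 0.317, 0.141 and 0.187 and Spearman's rho 0.323, 0.141 and 0.176. These are descriptions across pairs, which share libraries, depth and, in part, genes. In the 289 pairs with overlapping exons r was 0.368, 0.178 and 0.232, and in the 99 pairs without it was 0.169, 0.0136 and 0.0596. The partner was called in 44 pairs for CDDO-Me against DMSO, and in 40 of these the antisense gene had the same sign. In the other 4 the antisense genes SVIL-AS1, RP1-261D10.2, RP11-532F12.5 and THAP7-AS1 had positive log2 fold changes of 0.27 to 0.67 and their partners SVIL, SIPA1L1, SPINT1 and THAP7 negative ones of -0.38 to -0.65. These 4 were named after their values were seen. Both genes were called in 2 pairs, MSC-AS1 with MSC and RP11-66B24.4 with ALDH1A3, and both of these pairs have overlapping exons. Of pairs with a called partner, 2 of 4 had the same sign in PRL-295 against DMSO and 9 of 10 in the direct comparison. No such count was made for other kinds of pair. By arrangement, r for CDDO-Me against DMSO was 0.389 for antisense genes inside a partner, 0.321 head-to-head, 0.232 tail-to-tail and 0.425 for the 24 pairs with the partner inside.

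Opposite-strand pairs of other kinds served as the comparison. In 1722 pairs of 2 protein-coding genes, r was 0.283, 0.188 and 0.181 in the same order of comparisons, and 64.6% of pairs had the same sign for CDDO-Me against DMSO. In 579 pairs of a tested antisense gene under 1 CPM with its partner, r was 0.281, 0.233 and 0.198. No difference between these kinds of pair was tested. Without CDDO-Me 1, r of the 388 pairs was 0.394 for CDDO-Me against DMSO, 0.141 for PRL-295 against DMSO and 0.312 for the direct comparison. With each library corrected for its GC trend, which differed between the groups, it was 0.267, 0.0477 and 0.174.

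**Figure D5:**
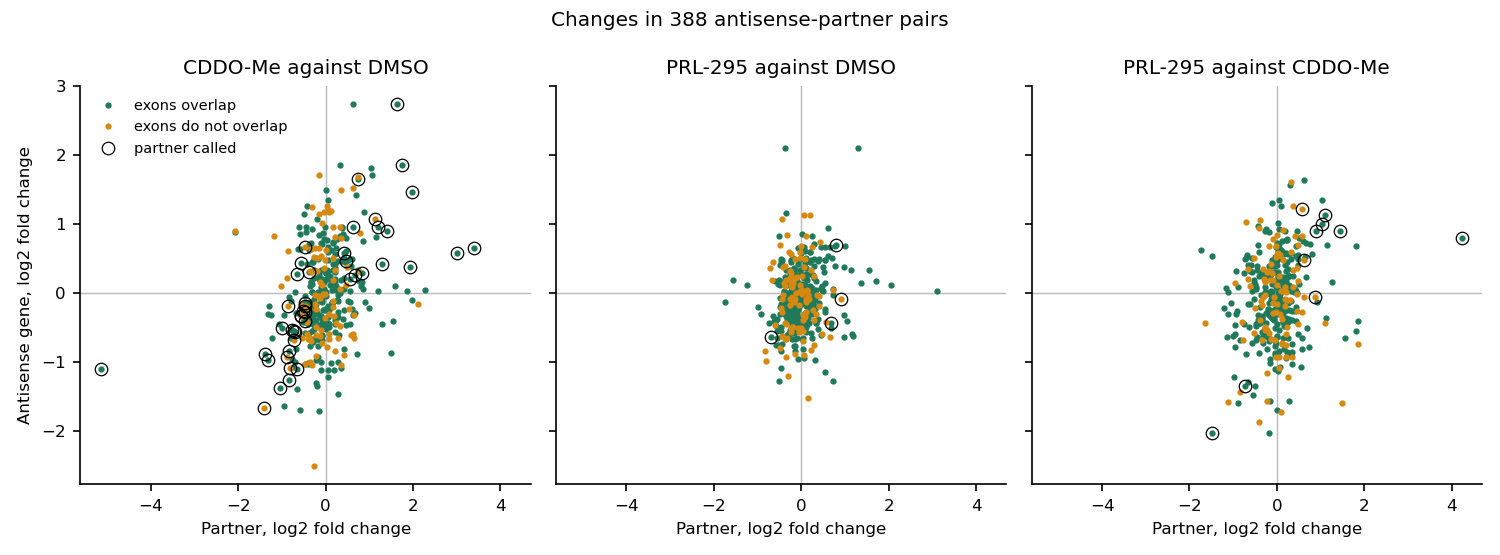
Each point is 1 of 388 pairs, with the partner's log2 fold change on the horizontal axis and the antisense gene's on the vertical axis, for the 3 comparisons; rings mark pairs whose partner was called. In CDDO-Me against DMSO, 40 of 44 ringed pairs lie in the quadrants of equal sign, and the ring at the far left is ELF3 with RP11-465N4.4 (-5.14 and -1.10).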

How the data were processed

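RNA of 9 HaCaT libraries was sequenced. Per the submitters' processing notes, the tools were STAR 2.5, HTSeq 0.6.1, TopHat, edgeR, DESeq2, SAMtools 0.1.18, GATK, Picard 1.111 and STAR-Fusion 0.8.0, with build hg38; the notes give no roles, and the annotation release and strand setting are not given in the sources used here. The authors deposited raw read counts per gene, and FPKM, which equalled count over gene length and library total within 0.1% for 100% of values. The deposited gene length is in bases.

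The antisense genes and the gene lists were chosen with earlier results of these data known. Partners are protein-coding genes overlapping on the other strand by the table's coordinates; exon overlap and GC content came from GENCODE release 29 (same span for 403 of 423 antisense genes and 380 of 407 partners). Counts were tested with edgeR 4.0.16 (R 4.3.3; filterByExpr, TMM, quasi-likelihood test, all 9 libraries, 16239 genes, Benjamini-Hochberg at 0.05). The pair ratio was tested with limma 3.58.1 on the difference of log2 CPM (prior count 2) over 3320 pairs. Intervals are 95%. Shares were compared by exact permutation (scipy 1.17.1). CPM are means or single values, and floors of 3 counts allow for counting error alone, as the labels name no molecular identifiers. The scripts were tested on simulated data. The summed level of the immune markers is not reported here.

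Named were called antisense genes, the 10 highest, up to 5 pairs with a called ratio, up to 8 pairs with a called partner per comparison, 3 genes on each side of 1 CPM and a list of 40. Alternatives were DESeq2 1.42.0, RLE scaling, no filter, a replicate block, fits of 6 libraries, a GC correction (lowess, span 0.3), leaving out each library, a prior count of 0.5, both genes at 1 CPM or more, and, added after seeing the data, limma with sample quality weights and the pair correlations without CDDO-Me 1. Replicate numbers were not shown to pair the libraries.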

Additional observations from a re-analysis of the deposited data

How the results depend on the processing

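Called antisense genes numbered 7, 0 and 1 in CDDO-Me against DMSO, PRL-295 against DMSO and PRL-295 against CDDO-Me. They numbered 18, 4 and 6 with DESeq2, 11, 4 and 5 without the filter, 6, 3 and 0 with only the 6 libraries compared, 5, 0 and 2 with the GC correction, and 31, 10 and 24 with limma and sample quality weights (CDDO-Me 1 weighted 0.128), chosen after seeing the data. Leaving out 1 library gave 2 to 19, 0 to 5 and 0 to 3. Of all genes tested in the same fits, DESeq2 called 18.1%, 4.31% and 6.14%, edgeR without the filter 8.59%, 2.83% and 4.28%, with 6 libraries 7.80%, 4.22% and 0.293%, with the GC correction 6.83%, 1.27% and 3.39%, and limma with quality weights 21.7%, 13.5% and 11.8%. Called partners numbered 43, 4 and 10: 69, 24 and 26 with DESeq2, 72, 31 and 35 without the filter, 33, 24 and 3 with 6 libraries, 31, 7 and 19 with the GC correction, 118, 78 and 63 with quality weights, and 15 to 92, 0 to 19 and 4 to 12 leaving out 1 library. RLE scaling kept all 6 counts within 1.5 times. Called ratios numbered 3, 0 and 1, with 5 for CDDO-Me when both genes had at least 1 CPM, and 1 to 11, 0 to 5 and 1 to 2 leaving out 1 library. Pair correlations of 0.317, 0.141 and 0.187 became 0.267, 0.0477 and 0.174 with the GC correction, 0.169, 0.0136 and 0.0596 without exon overlap, and 0.394, 0.141 and 0.312 without CDDO-Me 1. The cause was not tested. The differences in antisense share ran from -0.00248 to 0.00598, -0.0152 to 0.00174 and -0.0174 to -0.000478 percentage points leaving out 1 library.

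Replicate numbers were not shown to pair libraries. Deviations of same-numbered libraries correlated from -0.234 to 0.115, and those of differently numbered libraries of different groups from -0.150 to 0.286. With the replicate block the called antisense genes numbered 3, 0 and 0, the partners 25, 2 and 9 and the ratios 2, 0 and 1. In CDDO-Me against DMSO it lost MSC-AS1 (adjusted p = 0.0502), RP5-1177I5.3 (0.07415), CTD-2510F5.4 (0.0704), FAM201A (0.05975), CCDC91 (0.0671) and ENTPD1 (0.0657). It also lost there the ratio of ST3GAL4-AS1 to DCPS (0.0579, limma). Lost in PRL-295 against DMSO were MAFG (0.0549) and PTHLH (0.0552), and in the direct comparison RP11-66B24.4 (0.0817).

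Most antisense genes lay under 5 CPM, and a change that missed the threshold there is not shown to be absent.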
